A study of Mus musculus with 8 samples.

Results

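The enzymes described here modify and crosslink fibrillar collagen, and were taken as the 10 genes of the deposited count table whose symbols are *Lox*, *Loxl1*, *Loxl2*, *Loxl3* and *Loxl4* (lysyl oxidases), *Plod1*, *Plod2* and *Plod3* (lysyl hydroxylases), and *P4ha1* and *P4ha2* (catalytic subunits of collagen prolyl 4-hydroxylase). The table lists 53465 genes, and all 10 enzyme genes were among the 14301 that passed the filter on low counts. They were matched by symbol. *Lox* and *Loxl1* passed the filter mainly through the libraries where they were high.

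Collagen is modified before and after it leaves the cell. In the endoplasmic reticulum, prolyl 4-hydroxylases hydroxylate proline so that the triple helix is stable at body temperature, and lysyl hydroxylases hydroxylate lysine, which sets the kind of crosslink that can form later and gives sites for sugars. Outside the cell, the copper-dependent lysyl oxidases turn lysine and hydroxylysine into reactive aldehydes that join neighbouring collagen and elastin molecules. The hydroxylases need iron, ascorbate and oxygen, and several of these genes are known targets of hypoxia-inducible factors. Pancreatic ductal adenocarcinoma (PDAC) is known for a dense, crosslinked collagen stroma, much of it laid down by fibroblasts, to which tumor cells add both collagen and crosslinking enzymes.

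RNA-seq was performed on cultured mouse PDAC cells of 2 lines, B73 and B87, each derived from a primary pancreatic tumor of the KC-shSmad4 model. Both lines carry a pancreas-specific Ptf1a-Cre, a Cre-activated tetracycline transactivator with a red reporter at *Rosa26*, and a doxycycline (Dox)-inducible, GFP-linked short hairpin RNA against *Smad4* placed at the *Col1a1* locus. The model was made with 2 independent *Smad4* hairpins. Which of them each line carries is not given here, and its part in differences between the lines was not tested. Smad4-off cells stayed on Dox and Smad4-on cells had been without it for 5 days before plating. Starting 24 h after plating, both were given either 100 pM TGFβ1 or 2.5 µM SB505124, which blocks the kinase of the type I TGFβ receptor, for 24 h. The 8 libraries form 4 groups (Smad4 off and Smad4 on under SB505124, Smad4 off and Smad4 on under TGFβ1) with 1 library per line in each. Every culture grew on collagen-coated plastic after passaging meant to remove non-tumor cells, each line is 1 tumor, and neither an arm without ligand and inhibitor nor a line with a control hairpin was analysed here. TGFβ1 was therefore compared with receptor inhibition and not with untreated cells, and effects of Dox cannot be told apart from those of *Smad4*. With the line in the model, the p-values rest on how unevenly the 2 lines responded to the conditions in these 8 cultures. No condition had a second culture of the same line.

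Library totals ran from 18389235 to 23440550 counts, at which 3 counts, taken here as the floor of detection, correspond to 0.125 to 0.162 CPM (counts scaled to a common library size, here with TMM factors). Such floors and the counting intervals given below cover counting error only. *Smad4* itself was higher in Smad4-on cells, by log2 1.73 ± 0.092 (SE, edgeR adjusted p = 0.00084) with TGFβ1 and by 1.62 ± 0.092 (edgeR adjusted p = 0.00234) with SB505124. All 8 epithelial markers were detected in every library, with a summed level of 3972 to 6222 CPM in B73 and 1219 to 2113 CPM in B87, although *Epcam* had only 3 to 39 counts. The summed level of 10 fibroblast and stellate cell markers was 5.00 to 41.6 CPM in B73 and 49.1 to 91.7 CPM in B87. *Lum* was at 0 counts and *Dcn*, *Thy1* and *Des* at 3 counts or fewer in every library. Outside the B87 Smad4-on SB505124 library, the sum came mostly from *Col3a1* (1.68 to 34.0 CPM in B73, 7.64 to 41.5 in B87) and *Pdpn* (2.45 to 5.74, 16.3 to 25.9). The rest was mostly *Pdgfrb* (0 to 1.46 CPM in B73, 12.8 to 27.2 in B87) and *Pdgfra* (0.648 to 0.898, 3.52 to 6.41). In the B87 Smad4-on SB505124 library *Pdgfrb* was the largest part, at 27.2 CPM of a sum of 58.6 CPM. Immune markers summed to 1.33 to 6.39 CPM, mostly *Cd68* (1.17 to 6.29 CPM), with *Cd3e* and *Adgre1* at 0 counts throughout. Endothelial markers summed to 0.702 to 26.1 CPM, mostly *Kdr* except in the B73 Smad4-on TGFβ1 library, where *Cdh5* led. In bulk RNA, a change in the number of cells of a type and a change in RNA per cell cannot be told apart.

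The lysyl oxidases share a catalytic domain whose copper is held by a short run of histidines, and this coding stretch is shown for 4 members because it marks the family and shows how far their transcripts differ where their function is shared. In GRCm38 the stretch starts in one coding exon and ends in the next, at chr9:58294359-58294378 and chr9:58293714-58293729 (minus strand) for *Loxl1*, chr14:69682319-69682338 and chr14:69689028-69689043 (plus strand) for *Loxl2*, chr6:83049998-83050017 and chr6:83050116-83050131 (plus strand) for *Loxl3*, and chr19:42599877-42599896 and chr19:42598801-42598816 (minus strand) for *Loxl4*. The sequences are 36 bases long and are given 5′ to 3′ on the coding strand from GENCODE M21 transcripts, with the 4 histidine codons in capitals.
Loxl1: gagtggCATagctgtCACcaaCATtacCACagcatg
Loxl2: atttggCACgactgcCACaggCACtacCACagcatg
Loxl3: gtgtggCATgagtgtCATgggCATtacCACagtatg
Loxl4: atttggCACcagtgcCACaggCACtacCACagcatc
*Loxl2* and *Loxl4* differed at 3 of the 36 bases, and the other pairs at 9 to 13. Over whole transcripts, none of the 75-base stretches (the read length) of *Loxl1*, *Loxl3* or *Loxl4* occurred in a transcript of another gene. For *Loxl2*, 43.56% of such stretches also occur in another gene, so its absolute level is uncertain. The main other gene was *Gm21451*, an unprocessed pseudogene on the same chromosome that had 0 counts in all 8 libraries.

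*Loxl2*, which is secreted and also acts on basement membrane collagen IV, had the highest level per length of the 10 when averaged over the 8 libraries, although not in Smad4-on cells under SB505124, and it rose with TGFβ1 in both *Smad4* states. It lies on chromosome 14 (69609068 to 69695834, plus strand, GRCm38). Under SB505124, its level was 77.3 CPM in Smad4-off and 45.7 CPM in Smad4-on cells of B73, and 87.5 and 76.2 CPM in B87. Under TGFβ1, it was 165 and 346 CPM in B73, and 310.3 and 492 CPM in B87, in the same order. All 4 TGFβ1 libraries were above all 4 SB505124 libraries. The rise was 6.97-fold in Smad4-on cells (log2 2.80 ± 0.17 SE, edgeR adjusted p = 0.000118) and 2.75-fold in Smad4-off cells (log2 1.46 ± 0.17, edgeR adjusted p = 0.00305). *Gm27177*, an antisense gene that overlaps 301 exonic bases of *Loxl2*, had 0 counts.

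*Lox*, the founding member of the family and a secreted crosslinker of fibrillar collagen and elastin, was rare in every library but was higher with TGFβ1 than with SB505124 in both lines and both *Smad4* states. It lies on chromosome 18. In B73, it had 7 and 12 counts under SB505124 (Smad4 off and on) and 95 and 269 counts under TGFβ1, that is 0.349, 0.648, 4.07 and 13.7 CPM. In B87, the corresponding counts were 0, 1, 17 and 32, and only the TGFβ1 libraries were above the floor. Within B73, the ratio of TGFβ1 to SB505124 was 11.7 in Smad4-off cells (95% counting interval 5.44 to 29.8) and 21.2 in Smad4-on cells (11.9 to 41.5). In B87, it was at least 6.43-fold in Smad4-off cells when set against the floor of 3 counts in that library, with a lower 95% counting limit of 4.68 for 17 against 0 counts, and 39.2 in Smad4-on cells with an interval from 6.55 to 1597. Across both lines, the fitted difference was log2 4.46 ± 0.47 (SE) in Smad4-on cells and 3.96 ± 0.55 in Smad4-off cells. Because *Lox* passed the filter through its TGFβ1 libraries, no p is given for these values, and the filter of at least 10 counts in every library removed it. Even at its highest, *Lox* made up 3.32% of lysyl oxidase transcripts per length in its library.

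Among the other lysyl oxidases, *Loxl4* rose with TGFβ1 in Smad4-on cells, and *Loxl1* and *Loxl3* did not pass. *Loxl4* lies on chromosome 19 (42593982 to 42612813, minus strand). It stood at 39.0 and 41.0 CPM under SB505124 and at 46.2 and 63.1 CPM under TGFβ1 in B73 (Smad4 off and on), and at 54.8, 55.0, 76.6 and 84.5 CPM in B87. Its rise in Smad4-on cells was 1.54-fold (log2 0.62 ± 0.10 SE, edgeR adjusted p = 0.00483), while the change in Smad4-off cells, log2 0.37 ± 0.10, did not pass (edgeR adjusted p = 0.0642). *Loxl3* (chromosome 6, 83034173 to 83052562, plus strand) and *Loxl1* (chromosome 9, 58287738 to 58313186, minus strand) did not pass in either *Smad4* state. *Loxl1*, best known for the renewal of elastic fibers, changed by log2 -0.05 ± 0.27 where *Smad4* was on and 0.54 ± 0.29 where it was off, and *Loxl3* by 0.06 ± 0.35 and 0.18 ± 0.35. For both genes the direction in Smad4-on cells was opposite in the 2 lines.

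**Figure D1:**
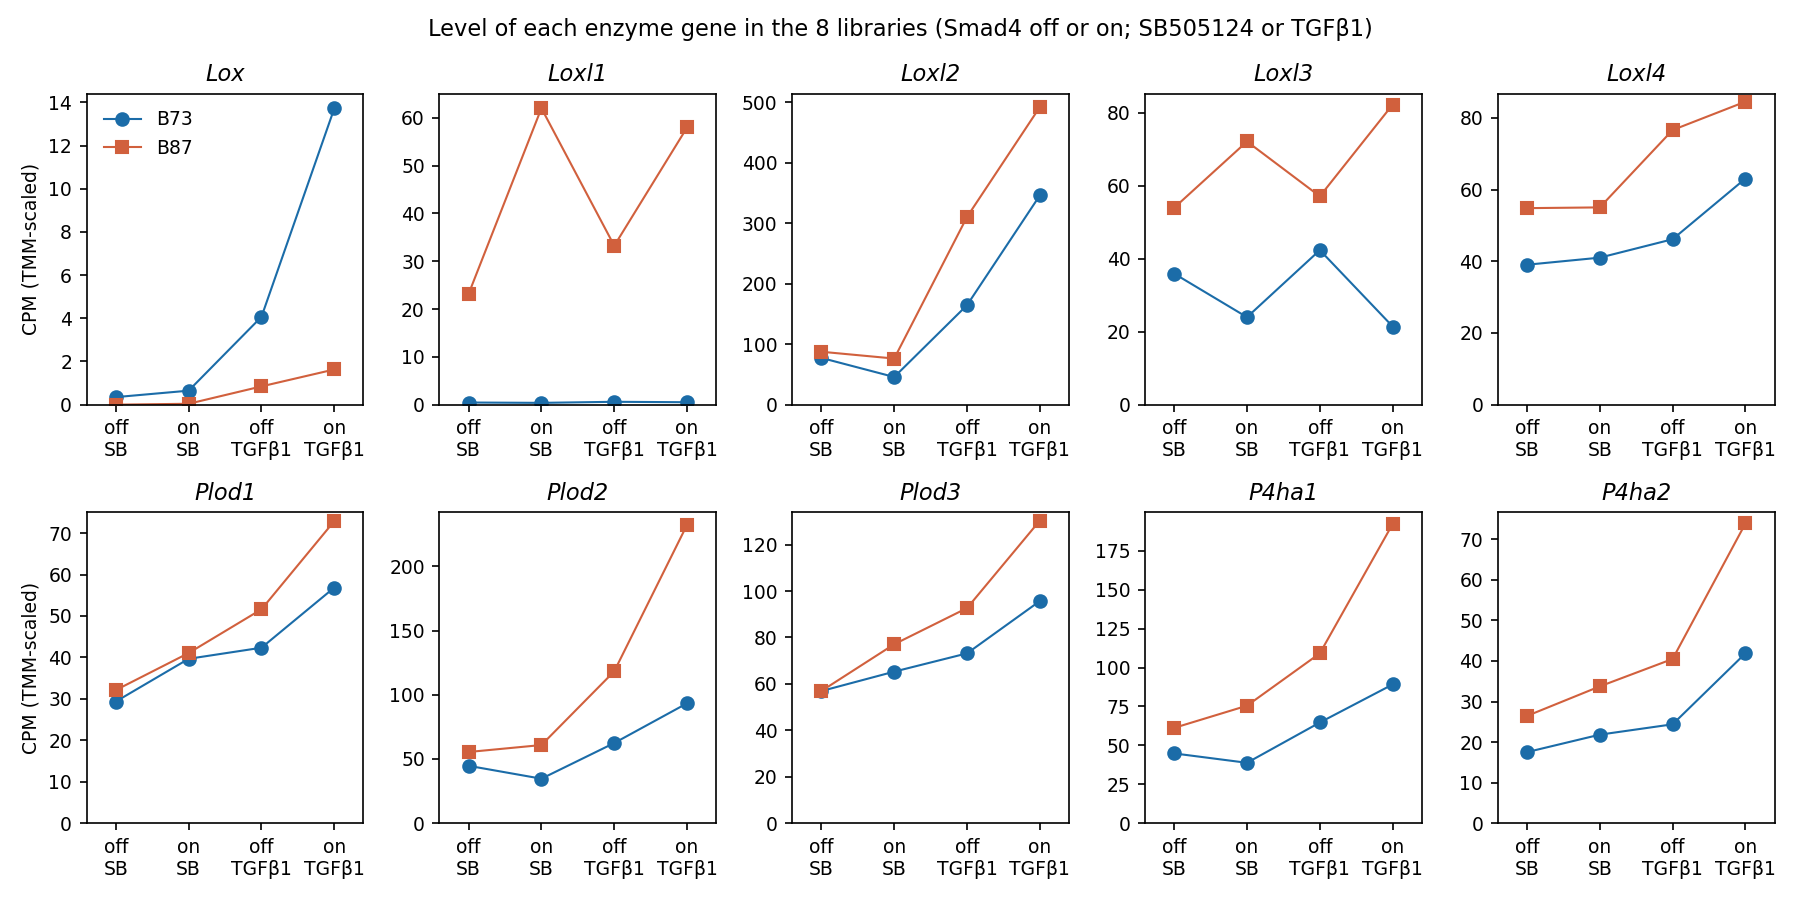
Level of each enzyme gene in the 8 libraries, in TMM-scaled CPM on a linear axis that starts at 0 (each panel has its own scale). Blue circles are line B73 and orange squares line B87, 1 library per point; *Loxl2* runs from 45.7 to 492 CPM with every TGFβ1 library above every SB505124 library, while *Loxl1* is near 0 in B73 and *Loxl3* goes opposite ways with *Smad4* in the lines.

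All 3 lysyl hydroxylases rose with TGFβ1 in Smad4-on cells, *Plod2* by the most. *Plod2* (chromosome 9, 92542223 to 92608428, plus strand) acts on the non-helical telopeptides of collagen and so favors hydroxylysine-derived crosslinks. Its level under SB505124 was 44.7 CPM (Smad4 off) and 34.6 CPM (Smad4 on) in B73, and 55.4 and 60.9 CPM in B87. Under TGFβ1, it was 62.4 and 93.4 CPM in B73, and 118 and 232 CPM in B87. Every TGFβ1 library was above every SB505124 library, and the Smad4-on TGFβ1 library was the highest of its line. The rise was 3.26-fold in Smad4-on cells (log2 1.70 ± 0.21 SE, edgeR adjusted p = 0.0014). In Smad4-off cells the change was log2 0.77 ± 0.21 and did not pass (edgeR adjusted p = 0.0537), although it passed with DESeq2 and the line in the model (adjusted p = 0.00533).

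*Plod1* and *Plod3* moved in smaller and similar steps. *Plod1* (chromosome 4, 147909753 to 147936767, minus strand), which hydroxylates lysines within the triple helix, stood at 29.4, 39.7, 42.3 and 56.9 CPM in B73 and at 32.1, 41.1, 51.6 and 72.9 CPM in B87, ordered as Smad4 off and on under SB505124, then Smad4 off and on under TGFβ1. *Plod3* (chromosome 5, 136987019 to 136996648, plus strand), which also transfers sugars to hydroxylysine, stood at 56.9, 65.3, 73.1 and 95.7 CPM in B73 and at 56.9, 77.1, 92.7 and 130.4 CPM in B87. Within each line both genes stepped up in that order. In Smad4-on cells, TGFβ1 raised *Plod1* by log2 0.68 ± 0.11 (SE) and *Plod3* by 0.66 ± 0.11, with edgeR adjusted p of 0.00368 and 0.00542. In Smad4-off cells, the rises were 1.52-fold for *Plod1* (edgeR adjusted p = 0.0141) and 1.44-fold for *Plod3* (edgeR adjusted p = 0.0278). *Plod3* shares 529 exonic bases with *Znhit1* on the opposite strand. *Znhit1* had 464 to 764 counts and also rose in Smad4-on cells, by log2 0.34 ± 0.11 (edgeR adjusted p = 0.0456), and because the counting setting for strand was not given, its part in the *Plod3* counts was not tested.

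Both prolyl 4-hydroxylase subunits rose with TGFβ1. Each forms a tetramer with protein disulfide isomerase, and *P4ha1* is the main isoform in most tissues. *P4ha1* (chromosome 10, 59323296 to 59373304, plus strand) stood at 44.8, 38.8, 64.7 and 89.2 CPM in B73 and at 61.2, 75.5, 109 and 192 CPM in B87, in the order used above. *P4ha2* (chromosome 11, 54100095 to 54131665, plus strand) stood at 17.5, 21.8, 24.4 and 41.9 CPM in B73 and at 26.4, 33.7, 40.5 and 73.9 CPM in B87. In both lines the Smad4-on TGFβ1 library was the highest for each gene. In Smad4-on cells the rise was 2.43-fold for *P4ha1* (log2 1.28 ± 0.15 SE, edgeR adjusted p = 0.00121) and 2.06-fold for *P4ha2* (log2 1.04 ± 0.10, edgeR adjusted p = 0.000576). In Smad4-off cells it was log2 0.68 ± 0.15 (edgeR adjusted p = 0.0306) and 0.55 ± 0.10 (edgeR adjusted p = 0.0173).

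The promoters of this pair are shown because the genes moved together. Each is 300 bases long (250 before to 50 after the RefSeq start site) on the plus strand of GRCm38.p6, at chr10:59323046-59323345 for *P4ha1* and chr11:54100674-54100973 for *P4ha2*. The *P4ha2* start site lies 829 bases downstream of the gene start in the deposited table. Capitals mark ACGTG and GCGTG, the core letters of hypoxia response elements, and CAGAC, a SMAD-binding sequence, each searched on both strands.
P4ha1: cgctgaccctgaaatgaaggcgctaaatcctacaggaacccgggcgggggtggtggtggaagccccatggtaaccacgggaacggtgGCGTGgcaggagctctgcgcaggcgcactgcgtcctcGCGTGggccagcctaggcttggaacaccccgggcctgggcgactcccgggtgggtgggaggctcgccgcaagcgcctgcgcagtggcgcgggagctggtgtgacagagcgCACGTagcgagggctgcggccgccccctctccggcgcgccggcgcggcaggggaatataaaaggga
P4ha2: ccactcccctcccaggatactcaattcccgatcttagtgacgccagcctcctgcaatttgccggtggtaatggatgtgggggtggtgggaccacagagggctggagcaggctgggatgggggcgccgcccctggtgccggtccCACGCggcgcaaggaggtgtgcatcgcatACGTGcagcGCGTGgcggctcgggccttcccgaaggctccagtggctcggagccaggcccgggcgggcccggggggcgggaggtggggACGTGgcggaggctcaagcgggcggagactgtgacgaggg
The *P4ha1* window held 3 matches to the hypoxia letters and the *P4ha2* window 4, with none to CAGAC in either. A promoter sequence was matched for 5 of the 10 enzyme genes. The windows of *Plod3*, *Plod1* and *Loxl4* held 4, 2 and 1 matches to the hypoxia letters. *Plod1* and *Loxl4* had 1 match each to CAGAC. Of all 32851 promoters of this length, 43.8% held at least 1 of the hypoxia letter groups and 49.6% held CAGAC, and a second SMAD-binding sequence, GGCGCC, was in 11.9% of all promoters and in those of *P4ha2* and *Loxl4*.

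Over the whole set, TGFβ1 against SB505124 in Smad4-on cells raised 5 of the 10 genes past both thresholds (edgeR adjusted p under 0.05 and a change of more than 2-fold), where 5.62% of all tested genes were called higher. These were *Lox*, *Loxl2*, *Plod2*, *P4ha1* and *P4ha2*. Without *Lox*, which had to be high with TGFβ1 to be tested, 4 of the other 9 were called and 7 passed, with a median of 0.68. On the p-value threshold alone 8 of 10 rose, where 15.6% of all tested genes did, and none fell. *Loxl1* and *Loxl3* were the exceptions. The median log2 fold change of the 10 genes was 0.86, against -0.02 over all tested genes. Leaving out the B87 Smad4-on library under SB505124 or under TGFβ1 brought *P4ha2* to log2 0.99 and 0.95, just under 2-fold, with adjusted p of 0.00784 and 0.00512 in edgeR, and the other 4 calls held in all 8 fits that each left out 1 library. In Smad4-off cells 2 of 10 were called higher, *Lox* and *Loxl2*, where 3.11% of all tested genes were. On the p-value threshold 6 of 10 rose, where 6.96% of all tested genes did, with a median of 0.58 against -0.02 over all tested genes. Without *Lox*, 1 of the other 9 was called and 5 passed, with a median of 0.55. In these Smad4-off cells the fibroblast and stellate marker sum was also higher with TGFβ1 (19.5 and 41.6 CPM in B73, 49.1 and 91.7 CPM in B87), mostly through *Col3a1* (11.5 and 34.0 CPM, 7.64 and 41.5 CPM), and so was the endothelial sum (2.25 and 7.24 CPM, 5.18 and 26.1 CPM). In Smad4-on cells the fibroblast and stellate sum was 5.40 and 5.00 CPM in B73 and 58.6 and 65.0 CPM in B87, and the endothelial sum 0.702 and 3.42 CPM and 2.66 and 4.79 CPM. The part of these markers in the enzyme changes was not tested. All 10 were higher under TGFβ1 in both lines in Smad4-off cells, and 8 of 10 in Smad4-on cells. The rises of *Plod1*, *Plod3*, *P4ha1* and *P4ha2* in Smad4-off cells no longer passed without the Smad4-off TGFβ1 library of either line, or without the B87 Smad4-off SB505124 library, with edgeR adjusted p between 0.0766 and 0.198. In those fits the values stayed above 0, at log2 0.56 to 0.66 for *Plod1*, 0.37 to 0.59 for *Plod3*, 0.45 to 0.73 for *P4ha1* and 0.49 to 0.57 for *P4ha2*. Without the replicate block, that is with the line left out of the model, edgeR called only *Loxl2* in Smad4-on cells and no member in Smad4-off cells, and with DESeq2 and no replicate block the counts were 5 and 1.

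**Figure D2:**
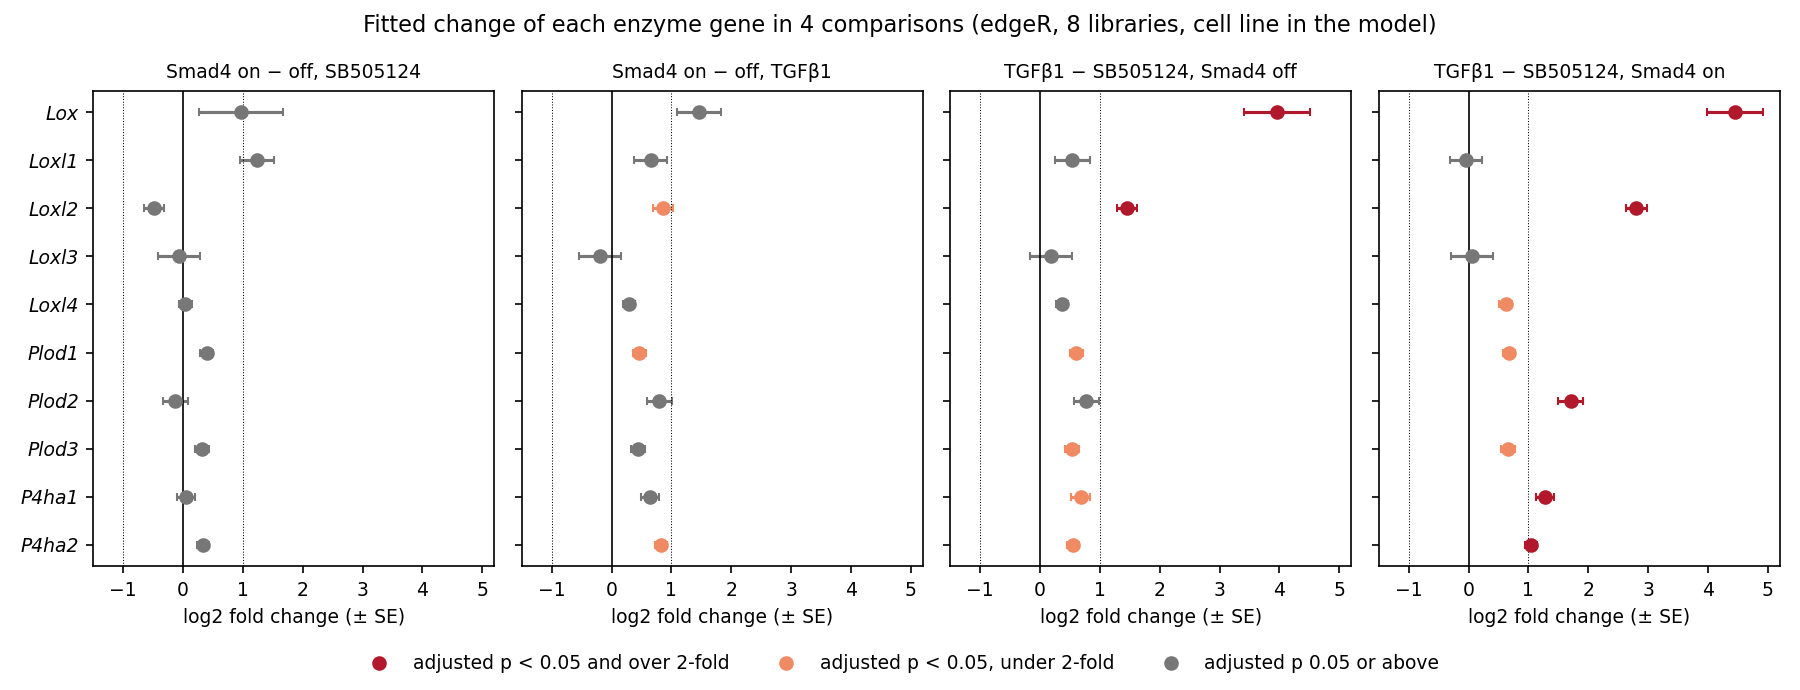
Fitted log2 fold change of each enzyme gene in 4 comparisons, with bars of 1 SE, from a single edgeR model over the 8 libraries with the cell line as a term. Dark red marks genes past both thresholds, orange those past the p-value threshold only and grey the others; dotted lines are 2-fold. The 2 TGFβ1 panels hold 2 and 5 dark red genes, and the Smad4 panels none. The comparisons share libraries with each other.

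Restoring *Smad4* under TGFβ1 raised 3 of the 10 enzyme genes, each by less than 2-fold. Of the 10, *Loxl2* rose 1.81-fold (log2 0.86 ± 0.16 SE, edgeR adjusted p = 0.0285), *P4ha2* 1.77-fold (log2 0.83 ± 0.10, edgeR adjusted p = 0.00678) and *Plod1* 1.38-fold (log2 0.46 ± 0.11, edgeR adjusted p = 0.0488). These 3 passed the p-value threshold, where 3.52% of all tested genes rose, and none was called at more than 2-fold, where 1.31% of all tested genes were called higher. With the replicate block 8 of 10 had an unadjusted p under 0.05 in edgeR, as did 23.7% of all tested genes, and DESeq2 with the line passed 6 (5.59% of all tested genes rose there) and called 0. *P4ha1* (log2 0.65 ± 0.15), *Lox* (1.46 ± 0.36), *Plod2* (0.80 ± 0.20) and *Plod3* (0.44 ± 0.11) had edgeR adjusted p of 0.0501, 0.062, 0.0651 and 0.0667. *Loxl4* differed by 0.29 ± 0.10, *Loxl1* by 0.65 ± 0.28 and *Loxl3* by -0.19 ± 0.36, and none of these passed. The median of the 10 was 0.65, against -0.01 over all tested genes. All but *Loxl1* and *Loxl3* were higher in Smad4-on cells of both lines.

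The calls of these genes changed when 1 library was left out. *Plod1* did not pass in any of the 8 fits that left out 1 library, with log2 values from 0.36 to 0.56 and edgeR adjusted p from 0.0585 to 0.359. *Loxl2* did not pass without the B73 TGFβ1 library of Smad4-off cells (log2 0.65, adjusted p = 0.201) or of Smad4-on cells (0.81, 0.122), or without the B87 TGFβ1 library of Smad4-on cells (0.92, 0.086), all with edgeR. *P4ha2* did not pass without the Smad4-off TGFβ1 library of B73 (log2 0.81, edgeR adjusted p = 0.0912) or of B87 (0.84, 0.0622). Without the replicate block no member passed in edgeR or DESeq2.

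Under SB505124, *Smad4* state moved none of the 10 past the p-value threshold, where 1.59% of all tested genes passed, with 5 at an unadjusted p under 0.05 in edgeR (12.6% of all tested genes) and none passing in DESeq2 with the line. The largest difference was that of *Loxl1*, at log2 1.24 ± 0.28 SE (edgeR adjusted p = 0.112). It came from B87, where the level went from 23.2 to 62.0 CPM, while B73 had 9 and 7 counts. *Loxl2* was lower in Smad4-on cells of both lines, by log2 -0.48 ± 0.17 (edgeR adjusted p = 0.288). *Plod1*, *P4ha2* and *Plod3* differed by 0.40 ± 0.11, 0.33 ± 0.10 and 0.31 ± 0.11, with the same sign in both lines. *Plod2* and *P4ha1* were lower in Smad4-on cells of B73 and higher in those of B87.

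Whether the TGFβ1 response differed between *Smad4* states was tested directly with the interaction term. None of the 10 passed in edgeR, where 0.196% of all tested genes did, with 4 at an unadjusted p under 0.05 (10.4% of all tested genes). These were *Loxl2*, at log2 1.34 ± 0.23 SE (edgeR adjusted p = 0.122), *Plod2* at 0.93 ± 0.29 (0.316), *P4ha1* at 0.60 ± 0.21 (0.368) and *P4ha2* at 0.49 ± 0.14 (0.293). In each of them the rise with TGFβ1 was larger in Smad4-on cells of both lines, for *Loxl2* by log2 1.83 in B73 and 0.86 in B87. DESeq2 with the line called *Loxl2* alone, with an adjusted p of 2.44e-05, where it called 0.259% of all tested genes higher. Over the 8 edgeR fits that left out 1 library, the adjusted p of *Loxl2* ran from 0.0543 to 0.361.

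*Loxl1*, *Lox* and *Loxl3* set the lines apart. Averaged over the 4 conditions, 3 of the 10 were called between B87 and B73, where 8.37% of all tested genes were, and 8 of 10 passed the p-value threshold, where 18.6% did. *Loxl1* was 84.9-fold higher in B87 (log2 6.41 ± 0.23 SE), with 527 to 1490 counts in B87 and 7 to 14 in B73. Because *Loxl1* passed the filter on low counts mainly through its B87 libraries, no p is given for this value. The counts of 3 called and 8 passed include it. *Lox* was lower in B87 (log2 -2.88 ± 0.33, edgeR adjusted p = 0.00167). *Loxl3* was 2.18-fold higher in B87 (log2 1.13 ± 0.26, edgeR adjusted p = 0.0244). The *Loxl3* difference fell under 2-fold without any of the 4 Smad4-on libraries, to log2 0.98 without either SB505124 library (edgeR adjusted p = 0.0919 for B73 and 0.0931 for B87) and to 0.86 without either TGFβ1 library (0.0492 and 0.0493). *Plod2* (log2 0.85 ± 0.15), *P4ha1* (0.82 ± 0.11), *P4ha2* (0.70 ± 0.07), *Loxl2* (0.59 ± 0.12) and *Loxl4* (0.52 ± 0.07) were higher in B87 and passed, while *Plod3* (0.26 ± 0.08) and *Plod1* (0.21 ± 0.08) did not. The *Loxl2* difference did not pass without the Smad4-on SB505124 library of B73 (edgeR adjusted p = 0.0554) or of B87 (0.0556). The fibroblast and stellate marker sum was higher in B87 under each condition and the epithelial marker sum lower, and their part in these line differences was not tested.

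The Smad4-on minus Smad4-off difference of *Loxl3* had opposite signs in the lines. Only the difference between the lines was tested, not the change within each line. In B73, its level was 35.9 CPM in Smad4-off and 24.0 CPM in Smad4-on cells under SB505124, and 42.4 and 21.4 CPM under TGFβ1. In B87, it was 54.0 and 72.2 CPM under SB505124, and 57.1 and 82.3 CPM under TGFβ1. Both Smad4-on libraries were below both Smad4-off libraries in B73 and above both in B87. The difference of the *Smad4* response between the lines was log2 1.26 ± 0.16 SE (edgeR adjusted p = 0.0417, DESeq2 adjusted p = 5.74e-05), the only one of the 10 that passed, where 0.406% of all tested genes did. With at least 10 counts required in every library, this difference stayed at log2 1.26 but did not pass (edgeR adjusted p = 0.0565). It did not pass in edgeR without the B73 Smad4-off TGFβ1 library (adjusted p = 0.0632). *Loxl3* shares 535 exonic bases with *Htra2* on the opposite strand, which had 973 to 1816 counts and a corresponding difference of log2 0.22 ± 0.13 (edgeR adjusted p = 0.682). *Loxl1* had a difference of 1.32 ± 0.35 (edgeR adjusted p = 0.246). For the TGFβ1 response, none of the 10 and none of the 14301 tested genes passed in edgeR as different between the lines, with 1 of the 10 (*Plod2*, log2 0.56 ± 0.21 larger in B87) at an unadjusted p under 0.05 and none of the 10 passing in DESeq2.

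**Figure D3:**
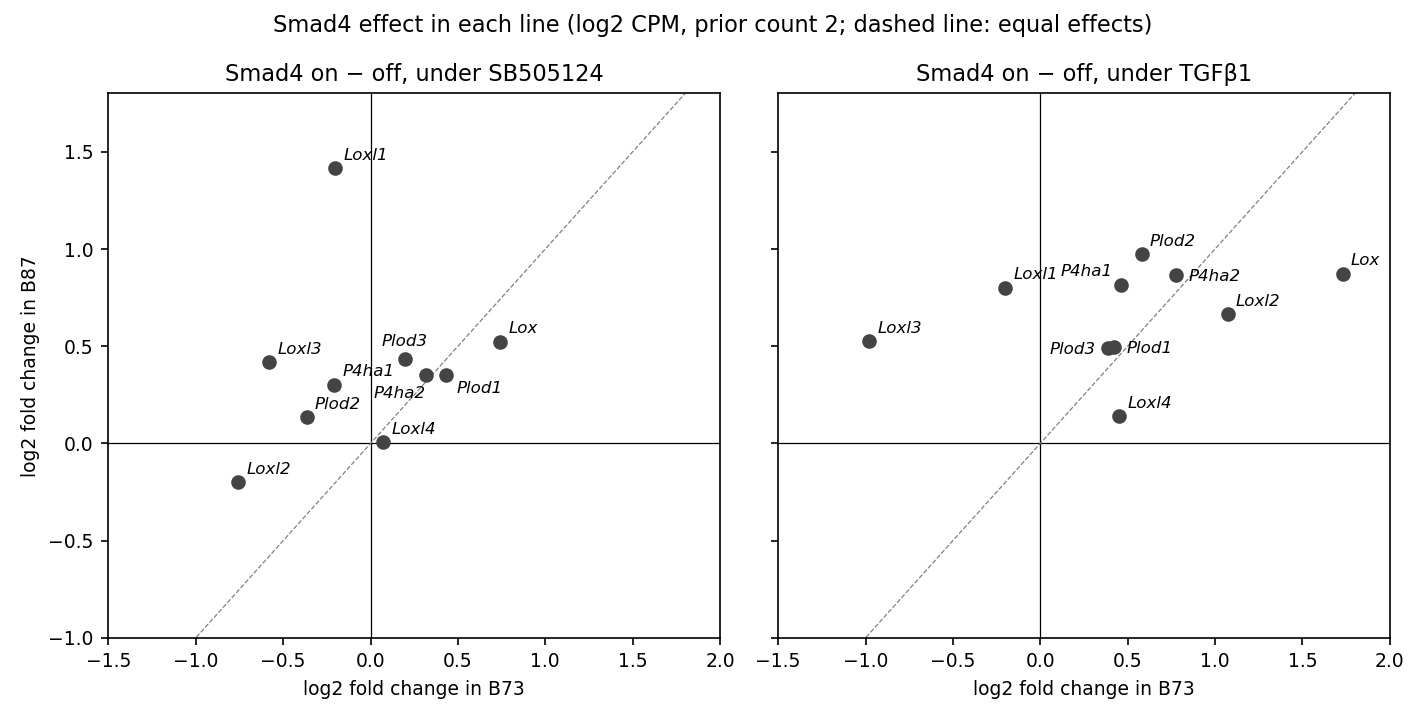
Smad4-on minus Smad4-off difference of each enzyme gene (log2 CPM, prior count 2) in B73 on the x axis and B87 on the y axis, under SB505124 (left) and TGFβ1 (right), with equal effects on the dashed line. Under TGFβ1, 8 genes are in the upper right quadrant and *Loxl1* and *Loxl3* are in the upper left; the B73 value of *Loxl1* and both values of *Lox* under SB505124 rest on few counts.

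Levels were compared between genes only after division by exonic length, as CPM per kilobase. Averaged over the 8 libraries, *Loxl2* was highest at 37.0, followed by *P4ha1* at 20.5, *Plod3* at 17.9, *Plod2* at 16.3, *Loxl4* at 13.7, *Loxl3* at 10.6, *Plod1* and *Loxl1* at 6.76 each, *P4ha2* at 5.61 and *Lox* at 0.558. The ranges over the libraries overlapped for every pair of neighbours in this order. *Lox* was below all other lysyl oxidases of its library except *Loxl1* in 3 of the B73 libraries.

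*Loxl2* took a larger share of the lysyl oxidase transcripts in every TGFβ1 library than in any SB505124 library. No test was made of these shares. Its share of their summed CPM per kilobase was 39.5% ± 8.15 (SD, n = 2 lines) in Smad4-off and 29.3% ± 9.11 in Smad4-on cells under SB505124, and 58.7% ± 0.368 and 67.9% ± 8.41 under TGFβ1. In B87 *Loxl1* took 10.3% to 30.5% of the sum and in B73 at most 0.48%, and the *Loxl2* share was lower in B87 than in B73 under each condition, by the least in Smad4-off cells with TGFβ1 (58.9% in B73 and 58.4% in B87). The summed lysyl oxidase level per length spanned 23.7 to 86.7 in B73 and 47.9 to 147 in B87, lowest in an SB505124 library and highest in the Smad4-on TGFβ1 library of each line. Among the lysyl hydroxylases *Plod3* held 47.8% ± 3.07 and *Plod2* 35.0% ± 3.08 in Smad4-off cells under SB505124, and 40.0% ± 7.27 and 44.5% ± 10.7 in Smad4-on cells under TGFβ1. *P4ha1* held 75.1% to 80.2% of the prolyl 4-hydroxylase sum in every group mean.

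**Figure D4:**
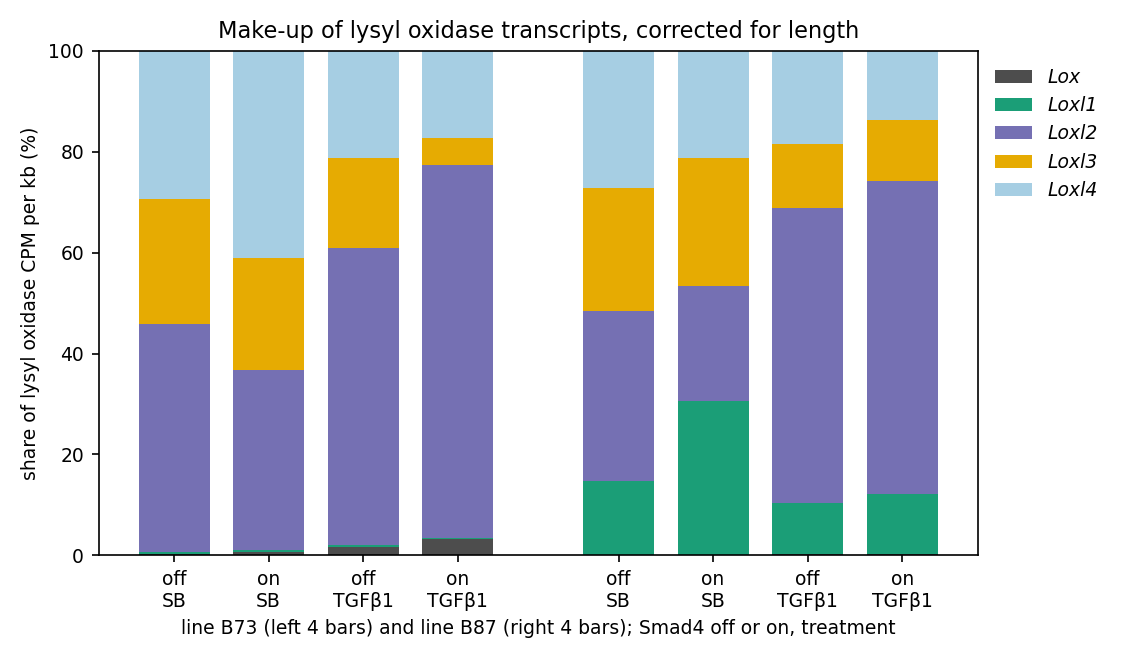
Share of each lysyl oxidase in the summed CPM per kilobase of the 5 genes, in percent, for the 4 libraries of B73 (left) and of B87 (right). *Loxl2* takes 22.9% to 45.3% under SB505124 and 58.4% to 73.9% under TGFβ1, and *Loxl1* is visible only in B87.

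The wider collagen pathway was described with lists of genes, by counts of genes called and passed in the same edgeR fit. Among 30 tested genes of collagen folding and processing, TGFβ1 in Smad4-on cells raised 10 and lowered 2 on the p-value threshold, and their median log2 difference was 0.23. Over all 14301 tested genes, 2235 rose and 2516 fell in this comparison, and the median was -0.02. The largest changes past both thresholds were *Tll1* (log2 3.13 ± 0.28 SE) and *Bmp1* (1.67 ± 0.14), proteinases that remove the C-propeptide of procollagen and cut the *Lox* propeptide, *Creb3l1* (2.21 ± 0.40), a transcription factor for collagen genes, *Pcolce* (-1.40 ± 0.31), which enhances C-propeptide removal, and *P4ha3* (-1.21 ± 0.22), the third prolyl 4-hydroxylase subunit. The largest edgeR adjusted p of these was 0.0138. *P4ha3* fell where *P4ha1* and *P4ha2* rose. With *Smad4* restored under TGFβ1, 1 gene of this list rose and 1 fell on the p-value threshold (504 and 469 of all tested genes), and the call past 2-fold was *Tll1* (3.56 ± 0.29, edgeR adjusted p = 0.00162).

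Of 12 tested genes for fibrillar collagens and elastic fiber proteins, 6 rose and none fell in Smad4-on cells with TGFβ1 (15.6% of all tested genes rose), with a median of 1.12. They included *Col5a3* (log2 6.61 ± 0.49 SE), *Col11a1* (4.03 ± 0.56), *Col1a1* (2.43 ± 0.22), *Col5a2* (1.85 ± 0.37) and *Fbn1* (1.70 ± 0.25). The largest edgeR adjusted p of *Col1a1*, *Col5a2* and *Fbn1* was 0.00971. *Col11a1* (0 to 0.54 CPM) and *Col5a3* (0.216 to 0.624 CPM) were close to the floor under SB505124 and passed the filter through the TGFβ1 libraries. Their fitted values are therefore imprecise, and no p is given for their rise with TGFβ1. The count of 6 and the median include both genes, which had to be high with TGFβ1 to be tested. *Col1a1* and *Col5a2* had opposite line patterns. *Col1a1* stood at 0.349 to 5.10 CPM in B73 and 25.9 to 627 CPM in B87, and *Col5a2* at 35.1 to 497 CPM in B73 and 0.374 to 2.74 CPM in B87. Between the lines the fitted differences were log2 6.75 ± 0.19 for *Col1a1*, -7.21 ± 0.28 for *Col5a2*, 5.90 ± 0.36 for *Eln* (elastin, at 2 counts or fewer in every B73 library), -4.03 ± 0.47 for *Col1a2* and 3.55 ± 0.28 for *Fbln5*, which binds *Loxl1* to elastic fibers. The hairpin against *Smad4* sits at the *Col1a1* locus in both lines, and its part in the *Col1a1* counts was not tested. With *Smad4* restored under TGFβ1, *Col5a3* (3.98 ± 0.39) and *Col1a1* (1.78 ± 0.21) rose and *Col5a2* (-1.86 ± 0.34) fell, with edgeR adjusted p of 0.00346, 0.00656 and 0.0251. *Col5a1* was the list's 1 gene whose *Smad4* response differed between the lines (log2 1.29, edgeR adjusted p = 0.0329).

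Of 19 tested hypoxia-inducible metabolic genes, TGFβ1 raised 11 and lowered 1 in Smad4-on cells on the p-value threshold (15.6% of all tested genes rose), with a median of 0.57. The leading changes were *Ankrd37* (log2 2.23 ± 0.29 SE), *Vegfa* (2.22 ± 0.09), *Bnip3* (1.88 ± 0.35), *Hk2* (1.75 ± 0.09) and *Pfkfb3* (1.16 ± 0.19), with a largest edgeR adjusted p of 0.00753. *Vegfa* encodes an angiogenic growth factor, and *Hk2* and *Pfkfb3* encode a hexokinase and a regulator of glycolysis. With *Smad4* restored under TGFβ1, 8 of the 19 rose and 1 fell (504 and 469 of all 14301 tested genes did), among them *Ndrg1* (1.36 ± 0.10), *Vegfa* (1.21 ± 0.09) and *Egln3* (-1.23 ± 0.15), with a largest edgeR adjusted p of 0.00656. *Vegfa* and *Ndrg1* also passed the interaction test, which 0.196% of all tested genes passed, at 1.38 ± 0.13 (edgeR adjusted p = 0.0206) and 1.13 ± 0.14 (0.0471). Of 9 genes for the supply of ascorbate, iron and copper, 2 rose and 2 fell in Smad4-on cells with TGFβ1, where 2235 and 2516 of all 14301 tested genes did. *Fth1*, the ferritin heavy chain that stores iron, was the only one called (-1.48 ± 0.12, edgeR adjusted p = 0.000282). *Slc2a1* stands in both of these last lists.

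For the most abundant enzyme of each class per length, the genes with the nearest pattern over the 8 libraries were found by the root mean square difference of centred log2 CPM among 11100 genes. For *Loxl2* they were *Olfr1372-ps1* (0.218), *Lif* (0.244) and *Glipr1* (0.257). For *P4ha1* they were *Jun* (0.154), *Msrb3* (0.167) and *Frmd6* (0.170), and *P4ha2* was at 0.192. For *Plod3* the nearest of all was *Plod1* (0.0726), followed by *Magi1* (0.0948) and *Midn* (0.0948), while *Plod2* lay at 0.485. The 4 libraries of a line share its background, so these distances are a description of shared line and treatment patterns.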

How the data were processed

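RNA-seq was performed on 8 libraries of PDAC lines B73 and B87. An allele that the lines share is not reported here. The authors made stranded poly(A) libraries with 75-bp single-end reads, trimmed them with Trimmomatic (0.36), aligned them to GRCm38 (mm10) with STAR (2.5.3a) and deposited raw counts per gene from featureCounts (1.6.3) with Ensembl 91 names, unpooled. The counting settings for strand and multi-mapping reads are not given in the sources used here.

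Counts were tested with the quasi-likelihood F-test of edgeR 4.0.16 (R 4.3.3) after TMM scaling and filterByExpr, in a single model of the 4 groups and the line, with Benjamini-Hochberg adjustment over all 14301 genes. The study used DESeq2 and named no covariate. Groups are paired by the line in each sample title. Deviations of the lines from the group means correlated at 0.642 to 0.774 over 6 pairs of groups. SE was approximated from the fitted log2 change and its F statistic (change over √F). Within-line log2 CPM used a prior count of 2. The text names the 10 enzymes, *Smad4*, called list genes (up to 5 by size in a comparison) and the 3 nearest genes of each leading enzyme. Genes that overlap or resemble an enzyme gene are named besides. The enzymes and lists were chosen with earlier results of these data known. Lists got no set test.

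Sequences came from GENCODE M21 and the RefSeq promoter table. Scripts were tested on simulated data. Alternatives were DESeq2 1.42.0 and edgeR without the line, DESeq2 with it, DESeq2 size factors in edgeR, other count filters, no fold rule, transcript length and leaving out each library.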

Additional observations from a re-analysis of the deposited data

Results flagged for a closer look

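The *Smad4* response of *Loxl3* differed between the lines by log2 1.26 (B87 minus B73, ± 0.16 SE), averaged over the treatments, in the test of the difference itself (edgeR adjusted p = 0.0417). Within B73 the Smad4-on minus Smad4-off difference was log2 -0.58 under SB505124 and -0.98 under TGFβ1, and within B87 it was 0.42 and 0.53. The corresponding difference for *Loxl1* was 1.32 and did not pass (edgeR adjusted p = 0.246). *Loxl1* was lower in both Smad4-on libraries of B73 and higher in both of B87, but B73 had only 7 to 14 counts per library.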

How the results depend on the processing

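The number of enzymes called depended on the 2-fold rule and, mainly in edgeR, on the line in the model. For TGFβ1 in Smad4-on cells it was 5, with 8 on adjusted p alone, 1 in edgeR with no replicate block and 5 in DESeq2 with no replicate block. For TGFβ1 in Smad4-off cells it was 2, with 6 on adjusted p alone, 0 in edgeR with no replicate block, 1 in DESeq2 with no replicate block and 1 with at least 10 counts required in every library, since *Lox* was then not tested. For *Smad4* under TGFβ1 it was 0, with 3 on adjusted p alone, 1 with no filter and 0 to 1 when a library was left out (*Lox* without either Smad4-off SB505124 library, *Loxl2* without the B87 Smad4-off TGFβ1 library, *Plod2* without the B73 Smad4-on TGFβ1 library). Under SB505124 it was 0, with 1 with no filter. For the interaction it was 0, with 1 in DESeq2 with the line and 1 with no filter. Between the lines it was 3, with 8 on adjusted p alone and 1 with at least 10 counts in every library, since *Lox* and *Loxl1* were then not tested. For the *Smad4* response between lines it was 1, with 0 under that filter, where *Loxl3* was still tested and did not pass (edgeR adjusted p = 0.0565). When a library was left out, the *Loxl3* value ran from log2 1.08 to 1.45.

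Leaving out a library or a whole line moved uncalled values across 0. The ranges for *Loxl1* were -0.202 to 1.42 (*Smad4* under SB505124), -0.199 to 0.801 (*Smad4* under TGFβ1), -0.519 to 1.01 (TGFβ1, Smad4 on) and -0.274 to 1.30 (TGFβ1, Smad4 off). For *Loxl3* they were -0.980 to 0.526 (*Smad4* under TGFβ1), -0.581 to 0.418 (*Smad4* under SB505124), -0.585 to 0.492 (TGFβ1, Smad4 on) and -0.343 to 0.608 (TGFβ1, Smad4 off). For *Smad4* under SB505124 they were -0.0281 to 0.110 for *Loxl4*, -0.470 to 0.237 for *Plod2* and -0.208 to 0.302 for *P4ha1*. With no replicate block, *Loxl3* moved to 0.0601 (edgeR) and 0.0668 (DESeq2) for *Smad4* under TGFβ1, and to 0.0983 and 0.0974 under SB505124. *Loxl1* with TGFβ1 in Smad4-on cells was 0.0234 in DESeq2 with the line. With the longest transcript as length, the *Loxl2* share in Smad4-off TGFβ1 cells was 56.6%, and the *P4ha1* shares were 64.8%, 60.1%, 66.9% and 64.0%, in the order of groups used above. No setting reversed a called value. Where a library was left out, the lone library of its group was assumed to vary like the others. The cause of these shifts was not tested.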
